A study of Homo sapiens with 12 samples.

Results

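The genes described here are 10 members of the BCL2 family, the proteins that decide whether the outer membrane of the mitochondrion stays intact. They were taken by name from the 60675 gene IDs of an expected count table, of which 30808 had a count, and all 10 had counts in every library. The list holds 3 pro-survival genes (BCL2, BCL2L1 and MCL1), 2 effectors (BAX and BAK1) and 5 BH3-only genes (PMAIP1, BBC3, BCL2L11, BID and BMF). The data are RNA-seq libraries of SW1783, a cell line from a human astrocytoma, with 3 libraries in each of 4 groups. Cells were kept for 24 h in growth medium to which vehicle alone (2% DMSO in PBS) or the water extract ACD was added. The 2% is that of the solution added, not of the medium. ACD was made from Aconitum carmichaeli Debeaux and used at 20 µg/mL (low), 100 µg/mL (medium) or 500 µg/mL (high). According to the study's methods the extract stock was dissolved in the same solvent, so DMSO was shared by vehicle and extract stock. Those methods also state that a cell viability assay showed no cytotoxicity at the high dose. The treatment protocol in the sample labels describes a different herb, so the groups rest on titles and treatment labels.

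In this family the pro-survival proteins hold the effectors BAX and BAK1 inactive. BH3-only proteins bind the pro-survival proteins or the effectors directly, and when they prevail the effectors form pores, cytochrome c leaves the mitochondrion and caspases are activated. The binding is selective, since the product of PMAIP1 (NOXA) pairs mainly with MCL1, while those of BBC3 (PUMA) and BCL2L11 (BIM) bind all pro-survival members. Several of the genes are controlled by their transcription, PMAIP1 and BBC3 by stress-responsive factors and BCL2L11 by FOXO factors. The values below are RNA levels only.

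Library totals lay between 18863863 and 24200576 counts. Mitochondrial ribosomal RNA took 0.913 to 0.96% of counts with vehicle, 3.01 to 3.33% at the low, 7.67 to 8.05% at the medium and 5.76 to 6.06% at the high dose, and its part in the results was not tested beyond leaving out mitochondrially encoded genes, which changed no call of a member. Of the 8 glial or astrocytoma markers, VIM, CD44, SOX9 and NES had mean normalised counts of 98915, 50400, 1331 and 148, whereas GFAP reached at most 6 counts in a library, S100B at most 5, ALDH1L1 at most 2 and AQP4 0. The defining astrocyte markers were thus at or near 0 in a line labelled astrocytoma. At the high dose VIM was higher (log2 fold change, or log2FC, 0.29, adjusted p = 6.13e-23), while CD44 (-0.38, adjusted p = 1.44e-79), SOX9 (-0.25, adjusted p = 4.69e-05) and NES (-1.72, adjusted p = 6.17e-26) were lower. Of the 6 colorectal epithelial markers 5 were near 0, with EPCAM at 0 to 4.19 normalised counts, and KRT8 went from 391 ± 6.91 with vehicle to 258 ± 25.4 at the high dose (-0.59, adjusted p = 5.53e-08). Of the 3 immune markers CD3E was at 0, CD68 had 2864 ± 91 with vehicle and 3953 ± 153 normalised counts at the high dose, and PTPRC fell from 275 ± 15.6 with vehicle to 84.8 ± 19.8 at the high dose (SD, n = 3). The 3 endothelial markers lay at or below 14.9 normalised counts. The part of these shifts in the results was not tested, and in bulk RNA fewer cells of a kind cannot be told apart from less RNA per cell.

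Of the BH3-only genes among the 10 members, promoter sequence is shown for the 4 whose RNA differed most between groups, because factors such as those named above can act at promoters. The sequences are the untranscribed bases of RefSeq promoter windows (GRCh38.p14), 5′ to 3′ on the strand of the gene, with motif matches in capitals. PMAIP1 (chr18:59899746-59899995, + strand) held the core of a cAMP response element, which begins 56 bases before the RefSeq start. BBC3 (chr19:47232767-47232917, - strand) held an E-box 232 bases before it. BCL2L11 (chr2:111120664-111120913, + strand) held a FOXO motif 223 bases before it, and BMF (chr15:40108893-40109129, - strand) held none of the motifs searched.
PMAIP1: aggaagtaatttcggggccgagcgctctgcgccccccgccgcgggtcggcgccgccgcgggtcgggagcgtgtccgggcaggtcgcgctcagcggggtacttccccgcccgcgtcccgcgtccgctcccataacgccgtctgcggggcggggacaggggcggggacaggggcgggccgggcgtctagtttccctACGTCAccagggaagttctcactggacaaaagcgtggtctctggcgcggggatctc
BBC3: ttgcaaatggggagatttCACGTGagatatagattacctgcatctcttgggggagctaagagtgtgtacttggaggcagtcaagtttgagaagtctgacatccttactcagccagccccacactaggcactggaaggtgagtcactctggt
BCL2L11: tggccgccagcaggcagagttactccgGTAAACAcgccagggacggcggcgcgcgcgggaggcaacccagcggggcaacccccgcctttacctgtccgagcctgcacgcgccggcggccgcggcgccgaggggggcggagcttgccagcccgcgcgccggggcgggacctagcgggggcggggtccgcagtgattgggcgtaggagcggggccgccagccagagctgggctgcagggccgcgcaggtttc
BMF: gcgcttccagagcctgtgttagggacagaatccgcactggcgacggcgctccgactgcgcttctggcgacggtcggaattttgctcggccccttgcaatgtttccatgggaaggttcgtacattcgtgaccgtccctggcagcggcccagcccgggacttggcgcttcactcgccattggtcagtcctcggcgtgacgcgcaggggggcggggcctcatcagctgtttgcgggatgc
Windows of 300 bases were matched for 9 of the 10 members, 15 windows in all, and MCL1 was not among them. On either strand TGACGT (that core) was found in the windows of 1 member and in 7.98% of 35116 promoter windows of the genome, GTAAACA (FOXO) in 1 member and 3.42%, CACGTG (E-box) in 3 members (BBC3, BAX and BID) and 7.26%, and TGATGNAA (the element bound by C/EBP and ATF dimers) in 0 members and 3.62%. A member was counted if any of its windows held the motif, and some members had several. The genome shares are of single windows, so the counts and shares are unlike measures. The motifs do not overlap each other in the sequences printed. A match of letters is a description of the sequence and not evidence of binding.

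At the high dose 5 of the 10 members passed the test for a differentially expressed gene (DEG), which asks for an adjusted p under 0.05 in the Wald test of DESeq2 and a fold change over 1.5 (background 18.2% of 19453 genes with an adjusted p). BBC3, PMAIP1, BCL2 and BCL2L1 rose, 4 members beside a background of 8.66% in that direction, and BMF fell, 1 member beside 9.57%. Every log2FC is from this fit. By adjusted p alone 9 members differed from vehicle, 7 higher and 2 lower (background 46.5%), and BAK1 was the exception. That count was 6 to 9 with single libraries left out and 8 with total count scaling, through the loss of BAX, BID or BCL2L11. The median log2 fold change of the members was 0.41, beside 0.00 over the 15282 genes averaging 10 or more normalised counts. Among the 4 groups together, a likelihood ratio test called 9 members, again without BAK1 (background 45.8%).

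**Figure D1:**
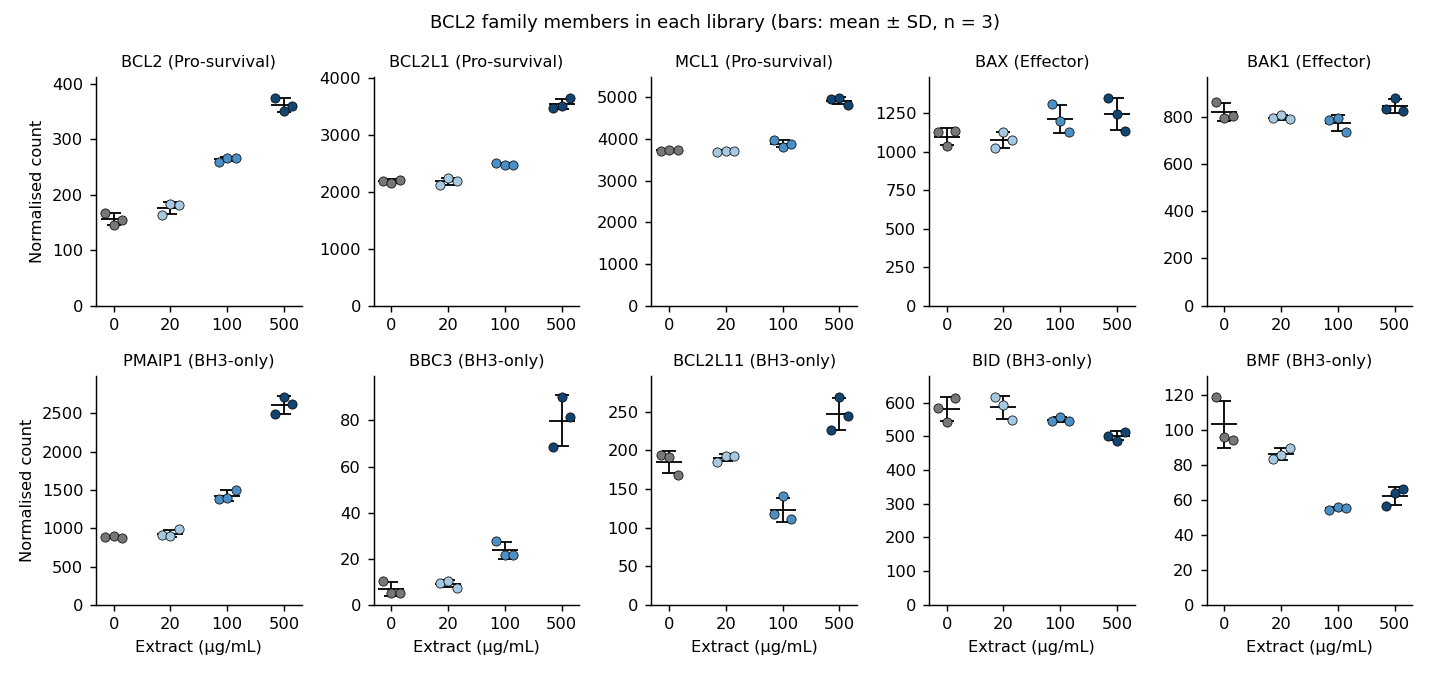
Normalised counts (y axis, counts divided by DESeq2 size factors, from 0) of each member against the dose of extract (x axis, µg/mL, evenly spaced), with 1 point per library and the mean ± SD of n = 3 as bars. BCL2, PMAIP1 and BBC3 step up at the medium and again at the high dose, BCL2L11 dips in the medium dose group and lies above vehicle at the high dose, BMF is low at both higher doses, and BAK1 has overlapping vehicle and dosed libraries at each dose.

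Of the pro-survival genes, BCL2 rose in proportion the most. Its normalised counts were 167, 145 and 155 with vehicle, 164, 184 and 181 in the low dose group, 260, 266 and 266 in the medium dose group and 375, 351 and 360 at the high dose. The low dose libraries overlapped those of vehicle, and both higher doses lay above vehicle and apart from each other. The log2FC was 1.22 (SE 0.116, adjusted p = 1.61e-24) at the high dose, a 2.33-fold rise, and 0.76 (SE 0.12, adjusted p = 3.62e-09) in the medium dose group. The step between these doses was 0.46 (SE 0.109, adjusted p = 0.000127), short of the fold threshold. BCL2 is an integral protein of the outer mitochondrial and endoplasmic reticulum membranes. The gene covers chromosome 18, 63123346 to 63320128 (GRCh38, - strand), and the coordinates of the other members are of the same build.

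BCL2L1 (chromosome 20, 31664452 to 31723989), which encodes BCL-XL, had a higher level than BCL2 also per kilobase of exon and rose at the high dose. Its normalised counts were 2195, 2150 and 2211 with vehicle, 2122, 2234 and 2188 in the low dose group, 2497, 2468 and 2476 in the medium dose group and 3474, 3503 and 3648 at the high dose. Only the low dose overlapped vehicle. The high dose gave a log2FC of 0.70 (SE 0.0382, adjusted p = 4.07e-73, 1.62-fold), the medium dose 0.18 (SE 0.0393, adjusted p = 3.18e-05), and the difference between them was 0.51 (SE 0.0378, adjusted p = 1.21e-40). With libraries scaled by total count instead, the value at the high dose was 0.58 and no longer over the fold threshold. Of its exon bases 41.34% are shared with ABALON, a long non-coding RNA gene on the opposite strand, which had 30.3 ± 10.2 normalised counts with vehicle and 43.3 ± 11.7 at the high dose. Whether the authors' counting used strand is not given in the sources used here.

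MCL1 (chromosome 1, 150560895 to 150579738), which encodes a short-lived protein, had the highest counts of the 10 members. The 3 vehicle libraries had 3706, 3743 and 3737 normalised counts, the low dose 3677, 3723 and 3709, the medium dose 3982, 3807 and 3890 and the high dose 4959, 4989 and 4825. The high dose libraries lay above all others. Its change at the high dose was small in size and precisely measured (log2FC 0.40, 95% interval 0.34 to 0.46, adjusted p = 1.35e-36), below the fold threshold. At the medium dose the difference was 0.06 (SE 0.0318, adjusted p = 0.139), with a sign that turned under scaling by total count (-0.05). Its ratio to vehicle at the high dose, 1.32, was below the 2.33 of BCL2 and the 1.62 of BCL2L1, a difference between genes that was not itself tested.

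The effectors BAX (chromosome 19, 48954815 to 48961798) and BAK1 (chromosome 6, 33572547 to 33580293) varied little. BAX had 1125, 1034 and 1135 normalised counts with vehicle, 1025, 1129 and 1077 in the low dose group, 1309, 1199 and 1125 in the medium dose group and 1349, 1247 and 1137 at the high dose. The high dose libraries lay just above the highest vehicle library, and the medium dose overlapped vehicle. The log2FC of BAX at the high dose was 0.18 (95% interval 0.04 to 0.32, adjusted p = 0.0259) and in the medium dose group 0.14 (adjusted p = 0.126). The high dose difference did not pass with total count scaling (0.07, adjusted p = 0.47), without high replicate 1 (0.12, adjusted p = 0.187), without high replicate 2 (0.18, adjusted p = 0.0642) or without vehicle replicate 2 (0.14, adjusted p = 0.163). BAK1, the effector that sits permanently in the outer mitochondrial membrane, had 861, 793 and 802 normalised counts with vehicle, 792, 806 and 788 in the low dose group, 787, 795 and 735 in the medium dose group and 834, 879 and 824 at the high dose. Every dose overlapped vehicle. The interval of its change at the high dose ran from -0.08 to 0.18 around 0.05 (adjusted p = 0.593; -0.06 with total count scaling), and the likelihood ratio test among 4 groups gave an adjusted p of 0.352.

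PMAIP1 had the largest absolute gain of the BH3-only members. Its normalised counts were 888, 895 and 876 with vehicle, 906, 896 and 986 in the low dose group, 1379, 1394 and 1505 in the medium dose group and 2490, 2713 and 2627 at the high dose. Each group lay above the one before it without overlap, though the lowest library of the low dose (896) lay next to the highest of vehicle (895) and that difference did not pass the test (log2FC 0.07, SE 0.06, adjusted p = 0.684). The log2FC was 0.69 (SE 0.0578, adjusted p = 1.25e-30) in the medium dose group and 1.56 (SE 0.0558, adjusted p = 1.04e-169) at the high dose, which is a 2.95-fold rise. The high dose exceeded the medium dose by 0.87 (SE 0.0533, adjusted p = 1.93e-58). PMAIP1 lies on chromosome 18, 59899996 to 59904305 (+ strand), with no exon on the opposite strand, and its upstream bases with the response element core are those printed first above.

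BBC3 (chromosome 19, 47220822 to 47232766) had the largest fold change and the fewest counts. Vehicle libraries had 10.2, 5.26 and 5.2 normalised counts, the low dose 9.62, 10.2 and 7.32, the medium dose 27.8, 21.4 and 21.7 and the high dose 68.3, 90.1 and 81.4. In raw reads the 12 libraries ranged from 5 to 100 counts. The medium and high doses were clear of vehicle and of each other. At the high dose the log2FC was 3.55 (SE 0.417, 95% interval 2.73 to 4.37, adjusted p = 1.48e-16), an 11.7-fold rise with a wide error. The medium dose gave 1.78 (SE 0.441, adjusted p = 0.000422). The mean of 29.9 by which BBC3 cleared the low-count filter of that comparison (18.3) rested on the high dose libraries, and it had no adjusted p in the medium dose group when vehicle and medium libraries were fitted alone or when medium replicate 2 was left out. PUMA, its product, binds every pro-survival member.

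BCL2L11 (chromosome 2, 111119378 to 111168444) lay below vehicle at the medium dose and above it at the high dose. Normalised counts were 194, 192 and 168 with vehicle, 185, 193 and 193 in the low dose group, 117, 141 and 111 in the medium dose group and 227, 269 and 245 at the high dose. All medium libraries lay below and all high dose libraries above vehicle. The log2FC was -0.58 in the medium dose group (SE 0.143, adjusted p = 0.000372), just under the fold threshold, and 0.42 at the high dose (SE 0.133, adjusted p = 0.00386), the latter without passing when high replicate 2 was left out (0.36, adjusted p = 0.054). The difference between the doses, 1.01 (SE 0.14, adjusted p = 7.13e-12), passed both thresholds. Of the 14082 genes with an adjusted p in the medium dose group, 87 (0.618%) had significant changes of opposite sign with a significant difference between doses, and 43 (0.305%) were lower at the medium and higher at the high dose as BCL2L11 was. The medium dose change passed the fold threshold, at -0.70, without medium replicate 2, at -0.65 without vehicle replicate 3 and at -0.69 with total count scaling. Of its exon bases 10.78% are shared with MIR4435-2HG on the opposite strand, which had 503 ± 8.64 normalised counts with vehicle, 481 ± 10.2 at the medium and 395 ± 40.2 at the high dose. That gene was lower at the high dose (log2FC -0.35, adjusted p = 0.000303), where BCL2L11 was higher.

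BMF (chromosome 15, 40087890 to 40108892), whose product is held at the cytoskeleton until released, was the member that fell. Its normalised counts were 119, 96.4 and 94.7 with vehicle, 83.7, 85.7 and 90 in the low dose group, 54.5, 55.9 and 55.6 in the medium dose group and 56.7, 64 and 66.4 at the high dose. No dosed library reached the lowest vehicle library. The log2FC was -0.90 (SE 0.204, adjusted p = 9.65e-05) in the medium dose group and -0.72 (SE 0.2, adjusted p = 0.000947) at the high dose, and these did not differ detectably (0.18, 95% interval -0.24 to 0.60, adjusted p = 0.561). At the low dose the value was -0.26 (SE 0.193), without an adjusted p. BID (chromosome 22, 17734138 to 17774770), which links death receptors to mitochondria once caspase-8 has cut it, had 585, 542 and 614 normalised counts with vehicle, 616, 594 and 549 in the low dose group, 545, 557 and 544 in the medium dose group and 502, 487 and 514 at the high dose. Its high dose libraries lay below all others, with a log2FC of -0.21 (95% interval -0.37 to -0.05, adjusted p = 0.0204). The adjusted p of BID was 0.0536 without high replicate 1, 0.0978 without high replicate 2, 0.066 without vehicle replicate 1 and 0.13 without vehicle replicate 3.

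At the medium dose 4 of the 10 members were DEGs (background 3.81%), namely BBC3, BCL2 and PMAIP1, which rose (background 2.34%), and BMF, which fell (background 1.48%). By adjusted p alone 6 differed, BCL2L1 and BCL2L11 in addition (background 29.5%), and with total count scaling BCL2L1 did not pass while BAK1 and BID did. When the Wald test was made against a fold of 1.5 rather than against no change, 0 members passed at this dose and 4 (BBC3, BCL2, BCL2L1 and PMAIP1) at the high dose. Few genes of the whole table passed that test at the medium dose (114), beside 1484 at the high dose. With 20 µg/mL, the low dose, 0 of the 10 were DEGs by DESeq2 and by edgeR (background 0.118%), and 0 had an unadjusted p under 0.05. Only 6 members had an adjusted p there, since the low-count filter of that comparison stood at a mean of 263. The low dose values of all 10 lay between -0.26 for BMF and 0.41 for BBC3, the latter with an interval of -0.56 to 1.37, so that a moderate change of BBC3 was not detectable at this depth. Between the high and medium doses 3 members (BBC3, PMAIP1 and BCL2L11) were DEGs, all higher at the high dose (background 10.2% in either direction and 4.58% higher). By adjusted p alone 6 members differed between these doses (background 40.9%). The comparisons with vehicle share the same 3 vehicle libraries.

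**Figure D2:**
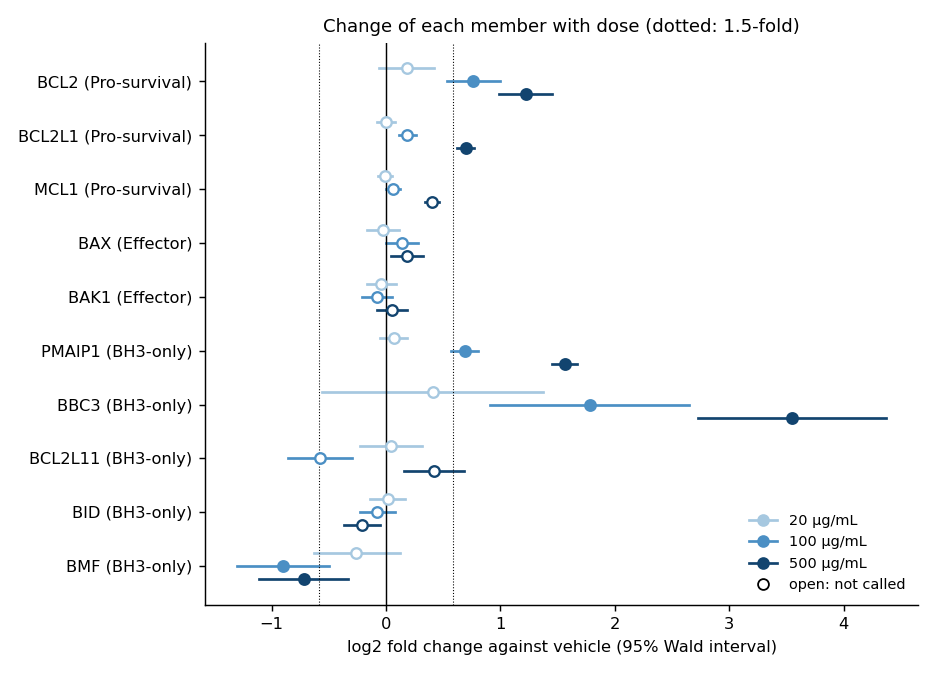
The log2FC of each member against vehicle (x axis) with its 95% Wald interval for the 3 doses (colours), filled where the member was a DEG and open where it was not, with dotted lines at 1.5-fold. Intervals in the low dose group all include 0, PMAIP1 and BBC3 lie farthest to the right at 1.56 and 3.55, BMF lies at -0.72 and -0.90, and BCL2L11 is on either side of 0 at the higher doses.

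Levels of different genes were compared as normalised counts per kilobase of exon. With vehicle the order was MCL1 (599 ± 3.15 per kb), BCL2L1 (521 ± 7.49), BAX (424 ± 21.6), PMAIP1 (406 ± 4.42), BAK1 (370 ± 16.6), BID (131 ± 8.16), BCL2L11 (27.3 ± 2.16), BMF (19 ± 2.48), BCL2 (12.4 ± 0.858) and BBC3 (2.17 ± 0.909, SD, n = 3). Of these neighbours only BAX and PMAIP1 had overlapping libraries. Of the 10 members only BBC3 was thus below BCL2, and with canonical transcript lengths BMF (22 ± 2.88 per kb) overlapped BCL2 (22.6 ± 1.57). Further genes of the family lay on both sides of BCL2 with vehicle. HRK had 0.322 ± 0.281 and BIK 1.4 ± 0.691 per kb, whereas BAD had 317 ± 9.57 and BCL2L2 232 ± 6.63. MCL1 and BCL2L1 made up 98.9 ± 0.0734% of the level summed over the 3 pro-survival members.

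The order changed with dose. In the medium dose group PMAIP1 had 652 ± 31.4 and MCL1 626 ± 14 per kb with overlapping libraries, whereas with canonical lengths PMAIP1 lay below MCL1 without overlap (751 ± 36.1 and 986 ± 22.1). Per kb of all exons PMAIP1 stood first at the high dose, at 1194 ± 51.4 per kb, ahead of BCL2L1 (844 ± 22.2) and MCL1 (792 ± 14). BBC3 rose from last place to 25.1 ± 3.44 per kb at the high dose, overlapping BCL2 (28.7 ± 0.951), and BMF became last at 11.4 ± 0.924. Lengths of single transcripts moved this order, for with the canonical transcript in place of all exons 5 of the 10 members kept their rank with vehicle and BAX came first, at 1381 ± 70.4 per kb. On that scale PMAIP1 (1374 ± 59.1) came at the high dose after BAX (1565 ± 133) and beside BCL2L1 (1376 ± 36.2), whose libraries overlapped those of PMAIP1.

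Summed by role over the 10 members alone, the pro-survival genes had 1132 ± 7.17 normalised counts per kb with vehicle, 1129 ± 18 at the low, 1238 ± 17.3 at the medium and 1664 ± 9.32 at the high dose. The effectors had 795 ± 33.6, 776 ± 23.5, 817 ± 47.5 and 863 ± 45.2 in the same order. The BH3-only genes had 585 ± 6.42, 605 ± 16.1, 812 ± 28.8 and 1381 ± 57.4. The mean of each sum was highest at the high dose, and the BH3-only sum had the largest difference from vehicle. For the effectors, the high dose libraries overlapped those of vehicle and of the medium dose. The ratio of the pro-survival to the BH3-only sum within a library was 1.91, 1.94 and 1.95 with vehicle, 1.85, 1.94 and 1.82 in the low dose group, 1.59, 1.52 and 1.46 in the medium dose group and 1.26, 1.16 and 1.2 at the high dose. Both higher doses lay below vehicle and apart from each other, and with canonical lengths the mean ratio went from 2.28 ± 0.0273 to 1.57 ± 0.0567. PMAIP1 made up 69.3 ± 1.14% of the BH3-only sum with vehicle and 86.5 ± 0.203% at the high dose, so the sum largely followed that gene. These sums leave out BCL2L2, a pro-survival gene with 232 ± 6.63 per kb with vehicle and 236 ± 9.62 at the high dose, and BAD, a BH3-only gene with 317 ± 9.57 and 308 ± 2.61. With these and BCL2A1, BCL2L10, BIK and HRK added, a choice made after the values were seen, the ratio of the sums was 1.51 ± 0.0288 with vehicle, 1.49 ± 0.0409 in the low dose group, 1.3 ± 0.0432 in the medium dose group and 1.12 ± 0.0346 at the high dose. PMAIP1 was then 44.9 ± 1.05% of the BH3-only sum with vehicle and 70.4 ± 0.617% at the high dose, and MCL1 with BCL2L1 82 ± 0.254% of the pro-survival sum with vehicle. With these genes added and canonical lengths, the ratio fell less. It was 1.55 ± 0.0328 with vehicle, 1.41 ± 0.0332 in the medium dose group and 1.32 ± 0.0347 at the high dose.

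Pairs of binding partners were compared in the same way. The per-kb ratio of MCL1 to PMAIP1 was 1.47, 1.47 and 1.5 with vehicle, 1.43, 1.46 and 1.32 in the low dose group, 1.01, 0.959 and 0.908 in the medium dose group and 0.7, 0.646 and 0.645 at the high dose. It stepped down at both higher doses without overlap, and with canonical lengths its mean was 2.02 ± 0.0248 with vehicle, 1.31 ± 0.0725 in the medium dose group and 0.908 ± 0.0427 at the high dose. The ratio of BCL2L1 to BCL2L11 was 18.2, 18 and 21.2 with vehicle, 18.5, 18.6 and 18.3 in the low dose group, 34.3, 28.2 and 35.8 in the medium dose group and 24.6, 20.9 and 23.9 at the high dose. This ratio was therefore highest in the medium dose group, where BCL2L11 was lowest, and its vehicle and high dose libraries overlapped. These are ratios of RNA levels and say nothing of the amounts of protein.

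**Figure D3:**
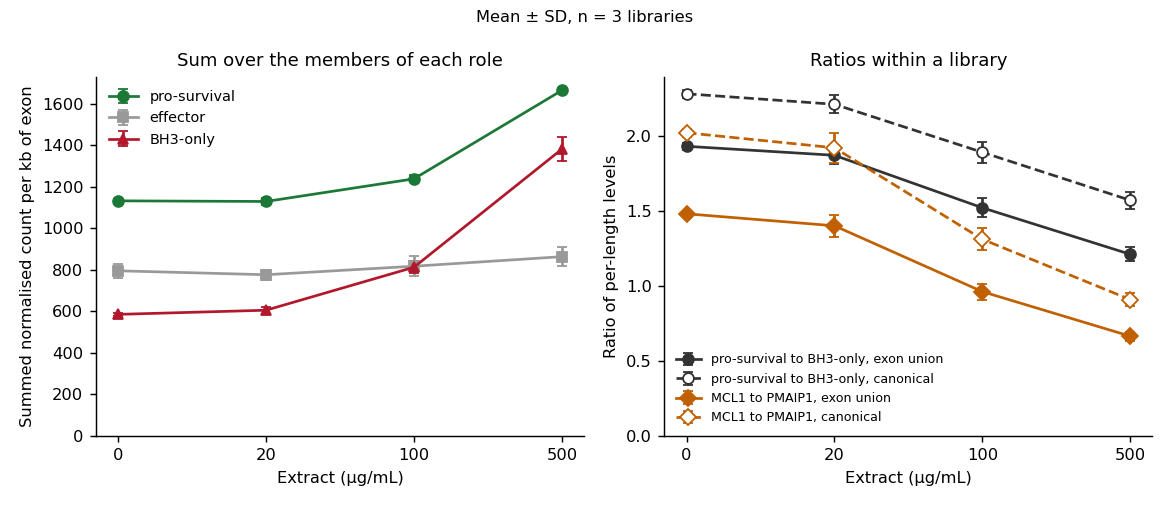
Left, normalised counts per kb of exon summed over the members of each role (y axis, from 0) against dose (x axis, µg/mL, evenly spaced). Right, ratios of these levels within a library, with solid lines for all exons and dashed lines for the canonical transcript, as mean ± SD of n = 3 libraries. The BH3-only sum goes from 585 to 1381, while the effector sum goes from 795 to 863 with overlapping libraries. Both ratios are lower at the medium and high doses under either length.

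The genes whose levels ran most like PMAIP1 over the 12 libraries were KDM7A (Pearson r = 0.998), LURAP1L (0.997) and GREM1 (0.997), on log2(normalised count + 1) among 11264 genes averaging 100 or more. The 12 points fall into 4 dose groups, and 1109 genes had an r over 0.95 with PMAIP1, so a high r was common. BID, the member with the largest fall among those with a mean of at least 100, was most like PTPN18 (0.964), AUTS2 (0.957) and VPS26B (0.951), and 3 genes had an r over 0.95 with it.

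Of 13 further BCL2 family genes, 2 were DEGs at the high dose (background 18.2%). BNIP3, a mitophagy receptor with a BH3-like motif, fell from 2459 ± 78.8 to 1584 ± 20.8 normalised counts (log2FC -0.64, SE 0.0448, adjusted p = 2.41e-44). HRK, a BH3-only gene picked out after its values were seen, had 0, 4 and 3 raw counts with vehicle, 0, 2 and 1 in the low dose group, 4, 10 and 5 in the medium dose group and 43, 57 and 51 at the high dose (adjusted p = 3.49e-10). Its mean vehicle level was below that of 3 counts, so no fold is given. The remaining 11, among them BAD, BIK, BOK and BCL2L2, did not pass, and the median of the list was -0.03.

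Downstream of the mitochondrion, 2 of 14 genes for released factors, channels and caspases were DEGs at the high dose (background 18.2%), and both fell. CASP2, an initiator caspase, went from 1447 ± 36.3 to 870 ± 26.2 normalised counts (log2FC -0.73, SE 0.055, adjusted p = 2.54e-39). APAF1, the scaffold of the apoptosome that cytochrome c assembles, went from 381 ± 21.1 to 231 ± 8.86 (-0.72, SE 0.107, adjusted p = 1.24e-10). By adjusted p alone 9 of the 14 differed, 5 higher and 4 lower, within a range of -0.73 to 0.36 (background 46.5%), and the median was -0.06.

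Of 8 caspase inhibitors 3 were DEGs at the high dose (background 18.2%). BIRC3 (cIAP2), which adds ubiquitin to RIPK1, rose from 208 ± 1.66 to 537 ± 6.72 normalised counts (log2FC 1.36, SE 0.103, adjusted p = 1.88e-38), and at the medium dose its value was 0.12 (adjusted p = 0.447). BIRC5 (survivin), which also serves in cell division, fell from 2578 ± 114 to 1483 ± 87.9 (-0.80, SE 0.0507, adjusted p = 1.37e-54). XIAP, a direct inhibitor of caspases and named after its values were seen, rose from 2532 ± 56.6 to 4301 ± 120 (0.76, SE 0.0386, adjusted p = 2.4e-85). The list therefore moved both ways, with a median of 0.26.

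Among 11 genes for death receptors, their ligands and adaptors, 4 were DEGs at the high dose (background 18.2%), namely TNFRSF10A, TNFRSF10B, TNFRSF10D and TNFSF10. TNFSF10 is the ligand TRAIL, and the others are receptors for it. TNFRSF10B (DR5), a receptor with a death domain, had 1281, 1227 and 1238 normalised counts with vehicle, 2048, 2075 and 2060 in the medium dose group and 5904, 6035 and 5725 at the high dose. It rose at the medium (log2FC 0.72, SE 0.0433, adjusted p = 2.13e-60) and the high dose (2.24, SE 0.0407), its adjusted p at the latter too small for the software to represent. TNFRSF10D (DcR2), a receptor with a truncated death domain, fell from 1008 ± 15.1 to 367 ± 1.68 (-1.46, SE 0.0714, adjusted p = 4.01e-91). The other two were named after their values were seen, as was the TRAIL receptor TNFRSF10C, which did not pass (-0.13, 95% interval -1.16 to 0.89, adjusted p = 0.868). TNFRSF10A (DR4) rose from 38.7 ± 0.957 to 86.6 ± 7.81 normalised counts (1.16, SE 0.241, adjusted p = 5.8e-06), with 16.74% of its exon bases shared with the opposite strand, and the ligand TNFSF10 (TRAIL) fell from 25.6 ± 1.61 to 5.61 ± 1.03 (-2.19, SE 0.509, adjusted p = 5.85e-05). Both are low, and the median of the list was -0.21. Tested against a fold of 1.5 rather than no change, the high dose calls of BNIP3, CASP2, APAF1 and TNFRSF10A did not pass among the genes of these lists named with values.

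Of 15 transcription factors and co-factors known for action at BCL2 family genes, the high dose raised 6 past both thresholds and lowered 0 (background 8.66% higher), with a list median of 0.44. By adjusted p alone 13 of the 15 differed at that dose, 10 higher and 3 lower (background 46.5%). At the medium dose 6 of the 15 were DEGs, all higher (background 2.34%), while by adjusted p alone 7 were higher and 2 lower (background 29.5%). In the low dose group 0 were DEGs by DESeq2 and by edgeR (background 0.118%), while 8 had an unadjusted p under 0.05 and 4 were higher by adjusted p alone (background 3.29%). ATF3 rose from 38.3 ± 2.09 to 140 ± 22.8 at the medium and 1014 ± 45.9 normalised counts at the high dose (log2FC 4.73, SE 0.165, adjusted p = 8.32e-179). TRIB3, a pseudokinase induced by the integrated stress response, had 393 ± 46.3 normalised counts with vehicle and 568 ± 13.3 in the low dose group, and rose to 2793 ± 85.8 in the medium dose group and 7743 ± 40.9 at the high dose (4.31, SE 0.0556). At the low dose its change was 0.54 (SE 0.0651, adjusted p = 8.4e-14), below the fold threshold. No BCL2 family member passed by adjusted p at that dose, where BCL2, BCL2L11, BMF and BBC3 had none.

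Further factors of that list were named after their values were seen. ATF4, the central factor of the integrated stress response, had 2059 ± 34.3, 2594 ± 57, 5571 ± 183 and 8380 ± 283 normalised counts from vehicle to the high dose (log2FC 2.03, SE 0.0372 at the high dose). DDIT3 (CHOP), which acts downstream of ATF4, went from 515 ± 39.3 to 7699 ± 511 (3.91, SE 0.0642), and 31.6% of its exon bases are shared with the opposite strand. CEBPB and MYC were the remaining DEGs of the list. FOXO1 was lower (-0.37, adjusted p = 0.000921) and FOXO3 higher (0.30, adjusted p = 1.64e-10) at the high dose, neither past the fold threshold. Of the 8 genes for turnover of MCL1 protein, 0 were DEGs at any dose by DESeq2 and by edgeR. The background was 0.118% at the low, 3.81% at the medium and 18.2% at the high dose, so few calls would be due among 8 genes. At the high dose 3 differed by adjusted p alone, 2 higher and 1 lower (background 46.5%), and the same number had an unadjusted p under 0.05. The lower of these was USP13, a deubiquitinase of MCL1 named after its values were seen, which went from 2253 ± 30.9 to 1532 ± 28.8 normalised counts (-0.56, SE 0.0433, adjusted p = 1.3e-36), just under the fold threshold.

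**Figure D4:**
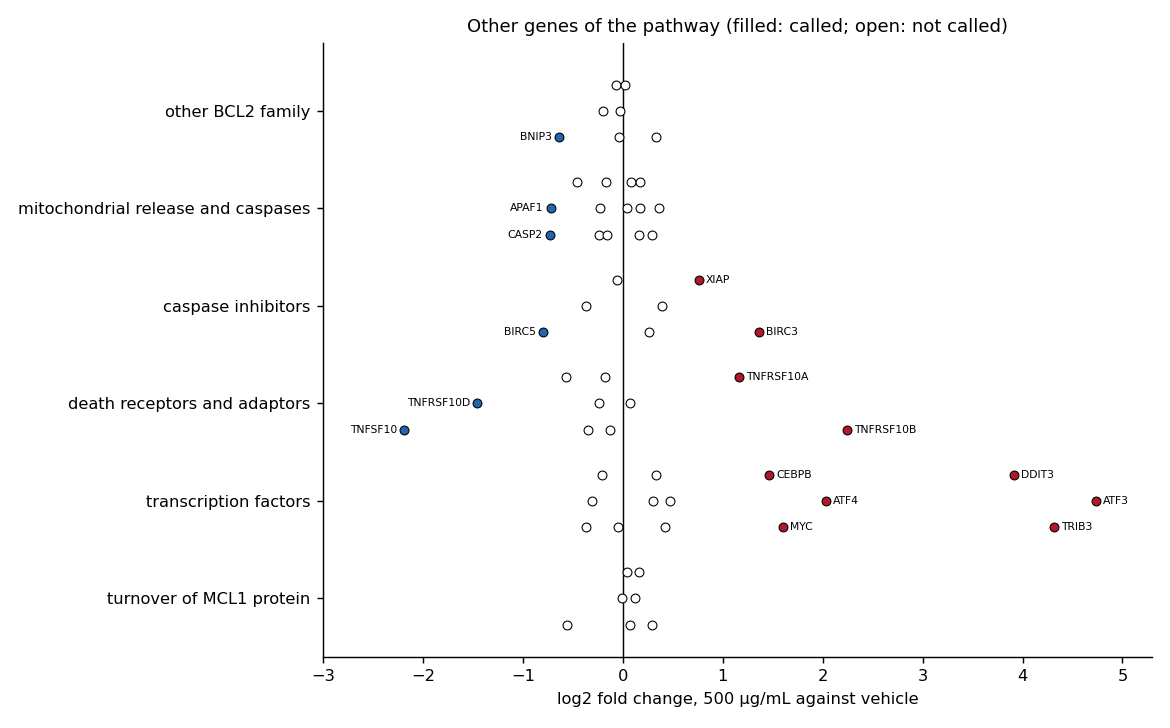
The log2FC at the high dose (x axis) of each gene of the 6 lists (rows) that averaged 10 or more normalised counts, filled red or blue where a DEG was higher or lower and open otherwise, with vertical offsets for legibility only. HRK is left out because its mean vehicle level was below that of 3 counts. The 6 called transcription factors all lie to the right, the TRAIL receptors and ligand lie on both sides between -2.19 and 2.24, and no gene of MCL1 turnover is filled.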

How the data were processed

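RNA of SW1783 cells (12 libraries, 3 in each of 4 groups, per the labels) was made by the authors into directional mRNA libraries and sequenced in paired ends. The authors trimmed reads with Trim Galore, aligned them to GRCh38 with STAR and deposited RSEM 1.3.3 expected counts per gene, of which 8.75% were not whole. The submitters' processing notes name Trim Galore 0.6.5 and STAR 2.7.3a, whereas the study's methods name other versions. The deposited expected counts were rounded here. All columns were matched to a library by the code in its description, with 0 left over.

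Differential expression was tested on all 12 libraries with DESeq2 1.42.0 in R 4.3.3 (Wald test, two-sided), group as the sole term and no filter beyond its independent filtering at 0.05, with p adjusted by Benjamini-Hochberg over all genes. A likelihood ratio test compared the 4 groups. The script was tested on simulated counts with known changes. The labels do not say whether replicates were separate cultures, so p-values measure the spread between these libraries, which may be technical. Replicate pairs differed by more than counting noise (chi-square per degree of freedom 1.99 to 3.55), and all were kept.

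Symbols and exon lengths came from GENCODE v44, which holds 93.2% of the IDs and 99.9% of the counts. Promoter windows, 250 bases before to 50 after each start, came from RefSeq. Normalised counts are given as mean ± SD over n = 3. The members and lists were chosen with earlier results of these data known. Some genes of the lists are not reported here and were left out of the list counts and medians. Beyond the members, genes named were up to 2 per list with the largest change at the high dose among DEGs averaging at least 100 normalised counts, and those named otherwise are marked. Alternatives were edgeR 4.0.16 with TMM scaling, TMM or total count scaling in DESeq2 (the latter, and role sums with further family genes, added after the data were seen), leaving out mitochondrially encoded genes, other filters and call rules, only the groups compared, a replicate block, each library left out in turn, and canonical transcript length.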

Additional observations from a re-analysis of the deposited data

Results flagged for a closer look

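BCL2L11 was the member with changes of opposite sign at the medium and high doses that both passed by adjusted p. Its log2 fold change was -0.58 at the medium and 0.42 at the high dose, and the test of the difference gave 1.01 (SE 0.14, DESeq2 adjusted p = 7.13e-12), with the 3 medium libraries below and the 3 high dose libraries above the range of vehicle. In the Wald test against a fold of 1.5 that difference did not pass. With each library left out in turn it ranged from 0.94 to 1.12.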

How the results depend on the processing

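Over 40 pairs of member and comparison, 880 values were recomputed, not counting the call rule without a fold threshold. Of these, 854 kept their direction and their side of the threshold, 12 changed sign, 10 lost and 4 gained a call. The call rule mattered most. Without a fold threshold 9 members were called at the high dose and 6 between high and medium doses, and 9040, 4157 and 306 genes of the whole table at the high, medium and low doses. Tested against a fold of 1.5, 0 members were called at the medium dose, and 1484, 114 and 2 genes in all. For the whole table edgeR called 809 genes at the medium and 30 at the low dose. At the low dose 18 were called with independent filtering off, 6 with the groups compared alone, 7 without mitochondrially encoded genes, and 6 to 13 with single libraries left out (6 without low replicate 1 or low replicate 2, 7 without vehicle replicate 3), against 11. The causes were not tested.

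Scaling by total count moved the median of all genes by -0.11 at the high and medium doses and the share of called genes that were higher from 47.5% to 34.1% and from 61.3% to 35.4%. Under it BAK1 was at -0.06 at the high, MCL1 at -0.05 at the medium and BID at -0.02 at the low dose, and PMAIP1 at the medium dose (0.58) and BCL2L1 at the high dose (0.58) fell below the fold threshold. With single libraries left out, values at the low dose ranged over 0 for BCL2L1 (-0.02 to 0.02), BCL2L11 (-0.02 to 0.08), BAX (-0.07 to 0.0075), BID (-0.03 to 0.06) and TNFRSF10A (-0.06 to 0.21), as did BAX between high and medium doses (-0.02 to 0.10). Length of the canonical transcript left 5 of 10 members at their rank.

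With a replicate block 5 members were called at the high, 5 at the medium (BCL2L11 in addition) and 0 at the low dose, 3 between high and medium doses and 8 among 4 groups (BID lost). Deviations from group means were not positively correlated between vehicle and dosed libraries of the same number (-0.118 to -0.00687). Between medium and high dose libraries of the same number they correlated at 0.0355 to 0.221, positive in all 3 pairs. Whether the numbers mark a shared source among the dosed libraries was not tested. Between low and medium, whose comparison is not described here, all 3 pairs of the same number exceeded 0.1 (0.124 to 0.193). Different numbers gave -0.158 to 0.0981 over all groups.

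Depth limits BBC3, with 5 to 100 counts in a library, and at the low dose BCL2, BCL2L11, BMF and BBC3, which had no adjusted p.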
